A study of Arabidopsis thaliana with 6 samples.

Results

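The chloroplast-encoded genes of Arabidopsis thaliana leaves were examined 2 hours after a spray of salicylic acid (SA), a phenolic hormone of plant defence. A gene belonged to this set when its locus tag in the RefSeq annotation matched to the array's probe sets carried the prefix of the plastid genome. A total of 69 genes met this rule, each with 1 probe set, out of 13286 genes matched to the array and out of 84 plastid loci for proteins in the annotation. Of 22746 probe sets outside the controls, 13436 were matched to 1 gene. Only genes matched in this way are called measured or counted among all genes below. The other 15 plastid loci were named by probe sets shared by more than 1 gene or by none, and were not analysed here.

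Plants were 3 to 4 weeks old. The mock group received 0.01% Silwet, a wetting agent, and the SA group received 1 mM SA in the same solution, so that Silwet was common to all plants. Each group comprised 3 biological replicates, numbered 1 to 3, with leaf RNA on 1 Affymetrix array per replicate. The labels give neither a genotype nor an accession, and do not say what a replicate number marks.

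The chloroplast genome descends from that of a cyanobacterium. It holds genes for the core of both photosystems, the cytochrome b6f complex, the ATP synthase, the NADH dehydrogenase-like complex and the large subunit of Rubisco, and in a second class genes for the plastid RNA polymerase and ribosome. Nuclear genes supply the other subunits of these complexes, the sigma factors that guide the plastid polymerase and a phage-type polymerase. Most chloroplast genes are transcribed together in long units that are later cut and trimmed, and short tails of A mark their RNA for decay, whereas the long tails of nuclear mRNA protect it.

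Values are log2 signals, so that a difference of 1 is a 2-fold difference. Signals of different probe sets are not on a common scale, and comparisons below are between arrays. The 8 measured nuclear genes for photosynthesis, among them LHCB4.1 of the antenna and PSAE-1 of photosystem I, had signals between 9.64 and 13.96 on the 6 arrays, so that markers of green leaf tissue were present. The guard cell marker FMA lay between 6.84 and 7.31 and the trichome marker TRY between 6.31 and 7.36; of the list of 9 markers of other leaf cell types these 2 were measured, and limma called neither for treatment or for replicate 1. TRY was lower in replicate 1 by -0.55 ± 0.14 (unadjusted p = 0.00955, adjusted p = 0.0669) and had an SA change of -0.36 ± 0.13 with the block (unadjusted p = 0.0360, adjusted p = 0.165), and FMA had 0.07 ± 0.14 and -0.22 ± 0.13. The part of trichomes in the values below was not tested. Median signals over all probe sets lay between 7.41 and 7.51 per array.

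Chloroplast transcripts did not differ detectably between SA and mock, and differed several-fold between the arrays numbered 1 and the others. Over the 69 genes the median change with SA was 0.04 log2 units, against -0.01 over all genes, and no difference exceeded 0.44 in size. In replicate 1, by contrast, 58 of the 69 genes fell below the mean of the other 2 replicates after adjustment over all genes, and 0 rose above it. The median of this difference was -1.80 log2 units, a 3.48-fold lower signal, against -0.01 over all genes. From whole-leaf chloroplast transcripts alone, fewer chloroplast-bearing cells, less chloroplast RNA per cell and differences in labelling or RNA quality cannot be told apart. None of these was tested. The 8 nuclear photosynthesis genes had replicate 1 differences from -0.13 to 0.68, with a median of 0.08. Control probe sets moved on the same arrays, by -3.89 for 25S ribosomal RNA and by 2.23 to 4.00 for the dap spike-in.

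**Figure D1:**
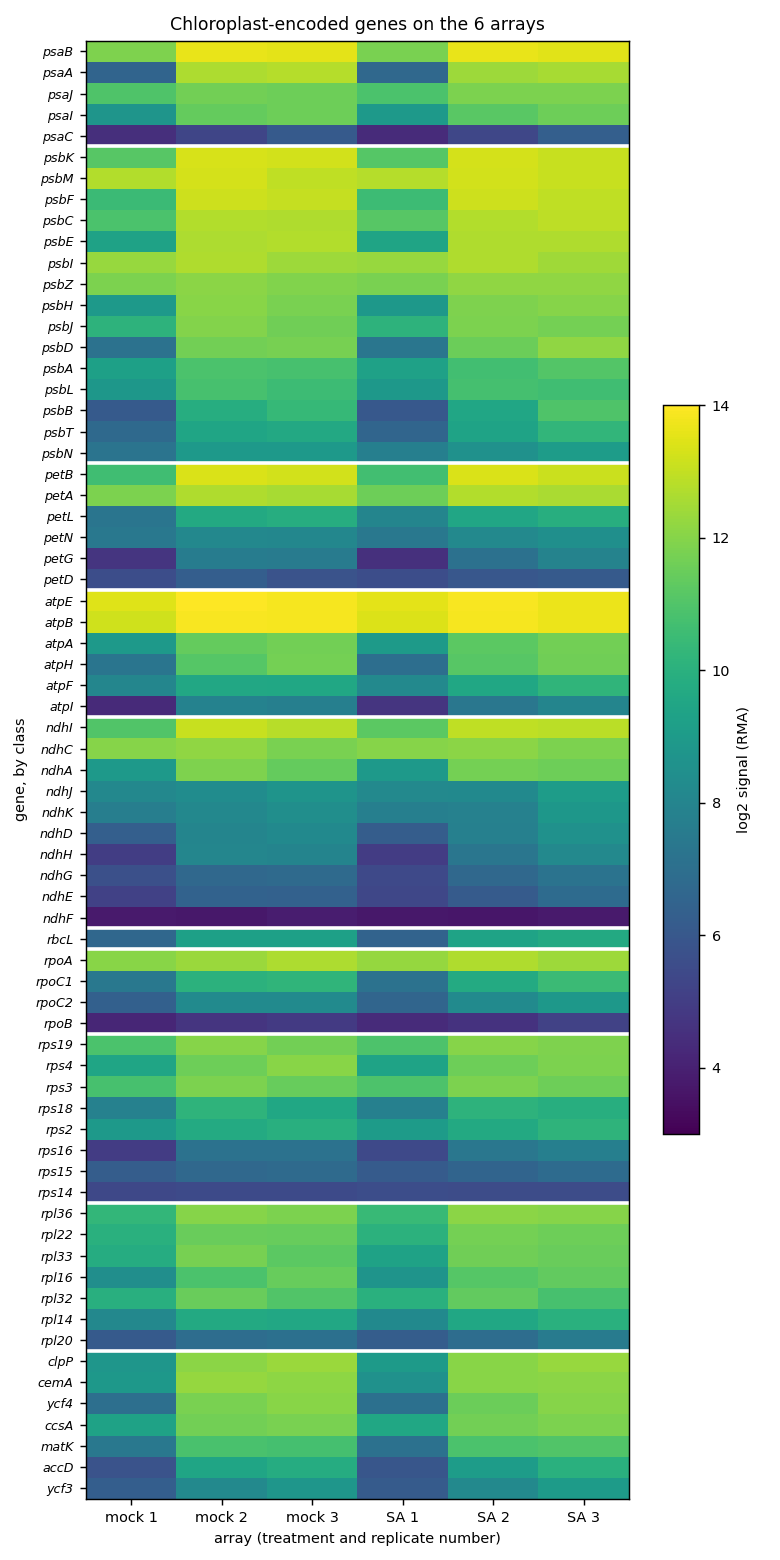
Log2 signal of each of the 69 chloroplast-encoded genes (rows, grouped by class from psa at the top to other genes at the bottom, white lines between classes) on the 6 arrays (columns). The columns of mock 1 and SA 1 are darker than the other 4 in most rows, and the mock and SA columns of the same number look alike.

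The replicate 1 difference was present in both treatments. The median signal of the 69 genes was 8.44 in mock replicate 1 and 8.54 in SA replicate 1, and between 11.10 and 11.36 on the other 4 arrays. Both arrays numbered 1 lay below all 4 others for 66 of the 69 genes, while 15.6% of all genes showed this order. Limma, with treatment and replicate number in the fit, called 58 genes lower at an adjusted p under 0.05, and 4.51% of all genes were called lower. The error of this fit comes from SA minus mock between arrays of the same number and holds no spread between replicate numbers. The unadjusted p was under 0.05 in 66 of the 69, and in 29.9% of all genes in either direction.

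Among the 13286 genes, 8 of the 10 with the largest shortfall in replicate 1 and 45 of the 100 with the largest were chloroplast-encoded. Without either array numbered 1 limma called 21 of the 69, and without any other array 55. Over all genes and both directions the calls went from 1332 to 25 without either array numbered 1, so that 21 of those 25 were chloroplast-encoded. The size of the difference moved little, with medians of -1.70 without mock replicate 1 and -1.78 without SA replicate 1. The contrast was examined because earlier results of these data had shown it.

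Photosystem I genes carried the widest range. The psaA gene encodes a reaction centre protein that binds the primary donor chlorophylls. Its log2 signals were 6.55, 12.63 and 12.76 in mock replicates 1, 2 and 3 and 6.71, 12.40 and 12.56 in SA replicates 1, 2 and 3. The 2 arrays numbered 1 lay far below the other 4, by -5.96 ± 0.12 log2 units (limma adjusted p = 0.000233), a 62.1-fold lower signal and the largest shortfall among the 13286 matched genes. The psaJ gene, for a small subunit of the same complex, gave 10.96, 11.68 and 11.58 in mock replicates 1, 2 and 3 and 10.88, 11.81 and 11.83 in SA replicates 1, 2 and 3. Here replicate 1 was lower by much less, -0.80 ± 0.11 (adjusted p = 0.0211). All 5 psa genes were called, and the other 3 had differences of -2.61 for psaI, -1.75 for psaB and -1.37 for psaC.

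Of the 15 photosystem II genes, 12 were called. The psbD gene encodes D2, which forms the reaction centre together with D1, and its signals were 7.16, 11.65 and 11.73 in mock replicates 1, 2 and 3 and 7.31, 11.52 and 12.16 in SA replicates 1, 2 and 3. Replicate 1 was lower by -4.53 ± 0.14 (adjusted p = 0.000476), with no overlap with the other 4 arrays. The psbC gene encodes the inner antenna protein CP43, and its signals were 10.89, 12.73 and 12.69 in mock replicates 1, 2 and 3 and 11.14, 12.74 and 12.92 in SA replicates 1, 2 and 3. Its replicate 1 difference was -1.75 ± 0.10, much smaller than that of psbD, the gene next to it. The psbA gene for D1 gave 9.24, 10.87 and 10.81 in mock replicates 1, 2 and 3 and 9.30, 10.69 and 11.07 in SA replicates 1, 2 and 3. It was lower in replicate 1 by -1.59 ± 0.12 (adjusted p = 0.00635). The psbK gene for a small subunit gave 11.15, 13.35 and 13.24 in mock replicates 1, 2 and 3 and 11.11, 13.30 and 13.07 in SA replicates 1, 2 and 3. It too was lower in replicate 1, by -2.11 ± 0.09. The psbI, psbM and psbZ genes, also for small subunits, had differences of -0.24, -0.39 and -0.28 and did not pass the test.

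In the cytochrome b6f complex, which passes electrons between the photosystems, 5 of 6 genes were called. The petG gene for a small subunit gave 4.70, 7.60 and 7.57 in mock replicates 1, 2 and 3 and 4.51, 7.11 and 7.90 in SA replicates 1, 2 and 3. Its difference was -2.94 ± 0.18 (adjusted p = 0.00291). The petL gene, next to it, gave 7.29, 9.67 and 9.87 in mock replicates 1, 2 and 3 and 8.02, 9.51 and 9.91 in SA replicates 1, 2 and 3. Replicate 1 was again below the other arrays, by -2.09 ± 0.19. The petD gene, for subunit IV, had a difference of -0.46 and did not pass (adjusted p = 0.101).

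Of the 6 ATP synthase genes 5 were called. The atpH gene encodes the subunit of the membrane ring, and its signals were 7.26, 11.10 and 11.72 in mock replicates 1, 2 and 3 and 6.99, 11.13 and 11.63 in SA replicates 1, 2 and 3. Both arrays numbered 1 were low, with a difference of -4.27 ± 0.10 (adjusted p = 0.000270). The atpF gene for a stalk subunit gave 8.04, 9.59 and 9.54 in mock replicates 1, 2 and 3 and 8.16, 9.54 and 10.18 in SA replicates 1, 2 and 3. Its difference was -1.62 ± 0.16. The atpB and atpE genes of the catalytic head had differences of only -0.51 and -0.35, and atpE did not pass.

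The NADH dehydrogenase-like complex, which feeds electrons back into the thylakoid chain, had the lowest share of calls among photosynthetic classes, 6 of 10. The ndhH gene gave 4.99, 8.04 and 7.96 in mock replicates 1, 2 and 3 and 4.95, 7.33 and 8.18 in SA replicates 1, 2 and 3. Replicate 1 was lower by -2.91 ± 0.20 (adjusted p = 0.00485). The ndhE gene gave 5.11, 6.44 and 6.43 in mock replicates 1, 2 and 3 and 5.35, 6.14 and 6.83 in SA replicates 1, 2 and 3. Its difference was -1.23 ± 0.16. The ndhC, ndhJ and ndhK genes had differences of 0.05, -0.41 and -0.58, and ndhF, whose signals stayed between 3.67 and 3.87 on all arrays, had 0.01; none of these 4 passed. The rbcL gene encodes the large subunit of Rubisco, the carbon-fixing enzyme, and its signals were 6.66, 9.23 and 9.24 in mock replicates 1, 2 and 3 and 6.50, 9.39 and 9.67 in SA replicates 1, 2 and 3. It was lower in replicate 1 by -2.80 ± 0.14, 6.98-fold (adjusted p = 0.00157).

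Genes of the plastid polymerase differed among themselves. The rpoC1 gene gave 7.41, 10.07 and 10.19 in mock replicates 1, 2 and 3 and 7.14, 9.74 and 10.51 in SA replicates 1, 2 and 3. Its replicate 1 difference was -2.85 ± 0.16 (adjusted p = 0.00231). The rpoC2 gene gave 6.36, 8.27 and 8.27 in mock replicates 1, 2 and 3 and 6.61, 8.25 and 8.87 in SA replicates 1, 2 and 3. The difference was -1.94 ± 0.14. The rpoB gene had low signals throughout, 4.20, 4.68 and 4.87 in mock replicates 1, 2 and 3 and 4.37, 4.59 and 5.19 in SA replicates 1, 2 and 3. Its difference of -0.55 ± 0.11 passed narrowly (adjusted p = 0.0466). The rpoA gene gave 12.03, 12.36 and 12.64 in mock replicates 1, 2 and 3 and 12.24, 12.71 and 12.40 in SA replicates 1, 2 and 3. This gene, with a difference of -0.39 ± 0.14, was the only polymerase gene that did not pass (adjusted p = 0.138).

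Among plastid ribosomal protein genes, 7 of 8 rps genes and all 7 rpl genes were called lower. The rps4 gene gave 9.48, 11.58 and 12.04 in mock replicates 1, 2 and 3 and 9.37, 11.56 and 11.84 in SA replicates 1, 2 and 3. Its replicate 1 difference was -2.33 ± 0.09 (adjusted p = 0.000795). The rps16 gene gave 4.96, 7.14 and 7.13 in mock replicates 1, 2 and 3 and 5.43, 7.37 and 7.74 in SA replicates 1, 2 and 3. Its difference was -2.15 ± 0.11. The rpl16 gene gave 8.44, 10.89 and 11.43 in mock replicates 1, 2 and 3 and 8.69, 11.09 and 11.36 in SA replicates 1, 2 and 3, and the difference was -2.63 ± 0.11. The signals of rpl33 were 9.82, 11.73 and 11.21 in mock replicates 1, 2 and 3 and 9.33, 11.61 and 11.47 in SA replicates 1, 2 and 3. Its difference was -1.93 ± 0.16, whereas that of rpl20, the member of this class closest to 0, was -0.93 ± 0.13. The signals of rpl20 were 6.13, 6.93 and 7.05 in mock replicates 1, 2 and 3 and 6.24, 6.92 and 7.57 in SA replicates 1, 2 and 3. The rps14 gene, whose signals lay between 5.40 and 5.58 on all arrays, had a difference of -0.02.

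The remaining 7 genes had the lowest class median, -3.42, and all were called. They encode proteins outside the photosynthetic complexes and the ribosome, or assembly factors. The accD gene, for a subunit of the acetyl-CoA carboxylase of fatty acid synthesis, gave 5.80, 9.49 and 9.80 in mock replicates 1, 2 and 3 and 5.94, 9.08 and 9.99 in SA replicates 1, 2 and 3. Replicate 1 was lower by -3.72 ± 0.15 (adjusted p = 0.000798). The clpP gene, for a protease subunit, gave 8.80, 12.10 and 12.35 in mock replicates 1, 2 and 3 and 9.01, 12.02 and 12.29 in SA replicates 1, 2 and 3. Its difference was -3.29 ± 0.10. The matK gene, for an intron maturase, gave 7.40, 10.84 and 10.78 in mock replicates 1, 2 and 3 and 7.10, 10.86 and 11.00 in SA replicates 1, 2 and 3, and its difference was -3.62 ± 0.13. The photosystem I assembly genes ycf4 and ycf3 had differences of -4.81 and -2.32, and cemA and ccsA, for an envelope protein and a cytochrome c assembly factor, had -3.42 and -2.30.

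The class of photosynthesis genes (psa, psb, pet, atp, ndh and rbcL) was set against that of the genetic system (rpo, rps and rpl). The median replicate 1 difference was -1.75 over the 43 photosynthesis genes and -1.53 over the 19 genes of the genetic system, with 34 and 17 called lower. An at least 8-fold shortfall was seen in 8 of the 43 and in 0 of the 19, and in 5 of the 7 remaining genes. Some genes had little room for such a shortfall. The rpoB and rps14 genes of the genetic system and the ndhF and psaC genes of photosynthesis had means below 6 in replicates 2 and 3. The median signal of photosynthesis genes minus that of the genetic system was 0.31 and 0.17 in mock and SA replicate 1, and 1.24, 1.39, 1.09 and 1.07 in mock 2, mock 3, SA 2 and SA 3. It was thus smaller on both arrays numbered 1 than on the others, by measures that share each array and are given with no test.

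The size of the shortfall was similar in both treatments for each gene. The difference between replicate 1 and the mean of the others was computed within mock and within SA, which share no array. Over the 69 genes its median was -1.78 in mock and -1.70 in SA, and the 2 sets of differences had a Pearson correlation of 0.982 across genes. The differences in SA minus those in mock ran from -0.56 to 0.79, with a median size of 0.16. When limma tested whether the difference depended on treatment, it called 0 of the 69 genes, and 0% of all genes; 0 of the 69 and 213 of all genes had an unadjusted p under 0.05.

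**Figure D2:**
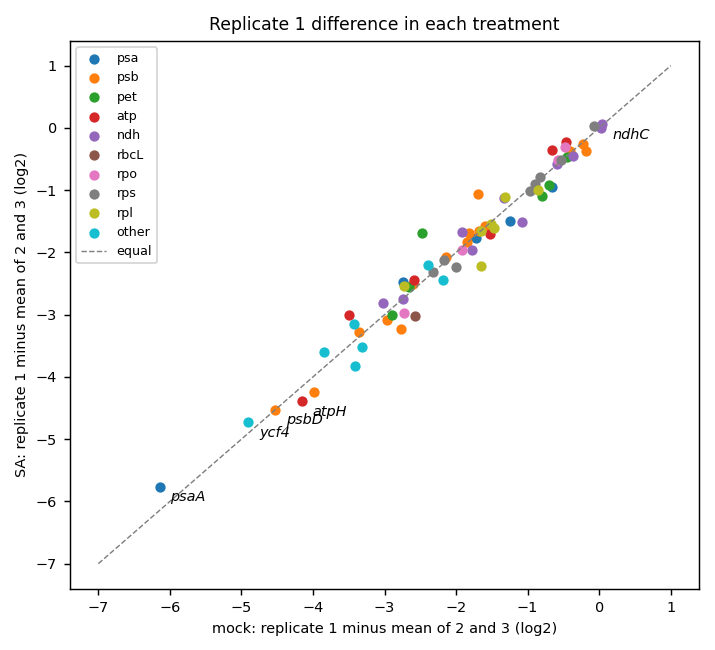
For each of the 69 genes, replicate 1 minus the mean of replicates 2 and 3 in mock (horizontal axis, log2 units) against the same in SA (vertical axis, log2 units), coloured by class, with a dashed line of equality. Points follow the line from near 0 (ndhC) to about -6 (psaA).

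Neighbouring genes on the chloroplast genome often differed in this measure, also where they are transcribed together. Known transcription units were taken from textbook knowledge after the values were seen, 13 units with 54 of the measured genes, and are described with no test. Within a unit the replicate 1 differences spanned between 0.16 log2 units (atpB and atpE) and 5.93 (psaA, psaB and rps14), with a median span of 2.24, and 11 of the 13 spanned more than 1. The widest span rests on rps14, whose low signals of 5.40 to 5.58 on all arrays may hide a shortfall. In that unit psaA had -5.96 and psaB -1.75. In the unit of psbD, psbC and psbZ the differences were -4.53, -1.75 and -0.28. In the unit from psbB to petD they ran from -4.11 in psbB to -0.46 in petD, and in the ribosomal protein unit that ends in rpoA from -2.63 in rpl16 to -0.39 in rpoA. The unit of psbE, psbF, psbL and psbJ was more even, with -3.32, -2.56, -1.85 and -1.67. The median absolute difference between genes next to each other in the measured order was 1.06, against an SD of 1.28 over all 69.

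**Figure D3:**
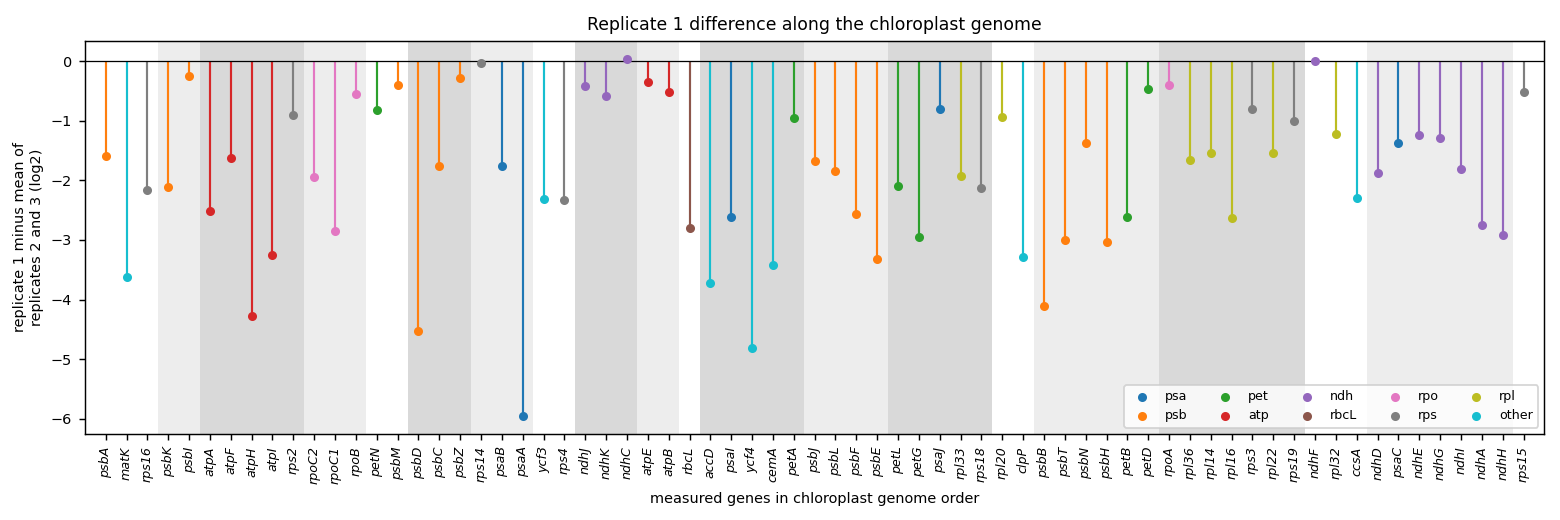
Replicate 1 minus the mean of replicates 2 and 3 (log2 units, vertical axis) for the 69 genes in the order of the chloroplast genome, coloured by class, with grey bands from the first to the last measured gene of 13 transcription units (psbN lies inside a band without belonging to the unit). Long and short stems stand side by side within most bands, as for psaA at -5.96 and rps14, of low signal on all arrays, at -0.02.

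The median replicate 1 difference was smallest in the few genes of lowest signal. By their mean in replicates 2 and 3, the 4 genes below 6 (rps14, ndhF, rpoB and psaC) had a median difference of -0.28, the 9 genes from 6 to under 8 had -1.29 and the 15 from 8 to under 10 had -1.87. The 24 genes from 10 to under 12 had -2.31, and the 17 genes at 12 or above, psaA among them, had -1.75. From 10 to under 12 the differences ran from -4.81 (ycf4) to 0.05 (ndhC), and at 12 or above from -5.96 (psaA) to -0.24 (psbI). Small differences thus also occurred at high signal. Across the 69 genes the correlation of the difference with that mean was -0.23.

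Other transcripts were set beside the chloroplast genes. Of a list of 47 nuclear photosynthesis genes, only 8 were measured. Limma called 0 of these 8 for replicate 1, with 0 at an unadjusted p under 0.05. A list of 26 nuclear genes for plastid ribosomal proteins, drawn up from general knowledge and named here by locus, held 6 measured loci. Of these, AT5G65220 fell by 0.58 and AT3G13120 by 0.53 on the log2 scale in replicate 1 and passed the test. The other 4 did not pass, among them AT5G24490, which differed in the other direction by 0.23 ± 0.21. The median of the 6 was -0.42, and 5 had an unadjusted p under 0.05, against the 29.9% of all genes. The only measured locus of the list of 3 phage-type polymerases, AT5G15700, had 0.14. Of the lists of 6 sigma factors and of 14 proteins linked to the plastid polymerase, 0 loci were matched here. For 11 mitochondrion-encoded genes, chosen after the values were seen, the differences ran from -1.30 in cox2 to -0.04 in nad9 with a median of -0.28. In most of the 11, both arrays numbered 1 lay below all others, an order that 15.6% of all genes showed. For SA against mock limma called 0 of these nuclear loci with or without the block, and 0 of the photosynthesis, polymerase and ribosomal loci had an unadjusted p under 0.05; the changes lay between -0.40 and -0.06 for photosynthesis and between -0.15 and 0.14 for plastid ribosomal proteins. The 11 mitochondrial genes had SA changes between -0.10 and 0.32.

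Several control probe sets moved with replicate 1 as well. The probe set for cytosolic 25S ribosomal RNA had log2 signals of 8.23, 11.80 and 12.15 in mock replicates 1, 2 and 3 and 7.97, 11.98 and 12.06 in SA replicates 1, 2 and 3, a replicate 1 difference of -3.89. That for 5S ribosomal RNA had low signals, between 3.70 and 3.92 on all arrays, and a difference of -0.10. The 6 probe sets of the dap spike-in, a bacterial transcript added to the RNA, were higher in replicate 1 by 2.23 to 4.00, while the 30 probe sets of the bio, cre, lys and phe controls differed by 0.07 to 0.35 and the 6 of thr by -0.01 to 1.04. Those of the trpn control differed by 0.75 at the 3 prime end, -0.89 at the 5 prime end and 0.26 in the middle. The 3 prime minus 5 prime signal of actin was higher in replicate 1 by 0.72 in 1 pair of probe sets and by 0.03 in the other, and by 0.21 to 0.57 in the 4 pairs of GAPDH and ubiquitin. Ribosomal RNA, like chloroplast RNA, lacks the long A tails of nuclear mRNA, and the labels do not state how the labelling reaction was primed. The part of labelling, RNA quality or plant material in the replicate 1 difference was not tested.

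**Figure D4:**
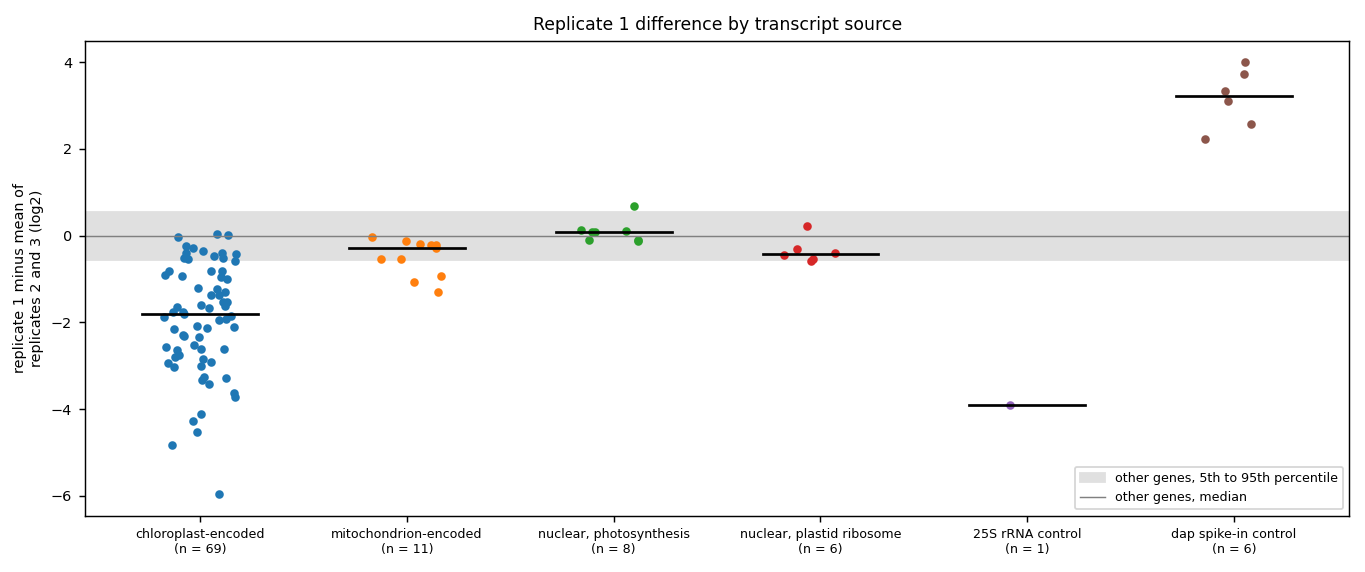
Replicate 1 minus the mean of replicates 2 and 3 (log2 units) by source of the transcript: points are genes or probe sets, black bars are medians, and the grey band spans the 5th to 95th percentile (-0.55 to 0.54) of all genes other than the chloroplast-encoded ones. Chloroplast genes and the 25S rRNA control lie mostly below the band and the dap control above it.

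Replicates 2 and 3 differed much less. Replicate 3 minus replicate 2 had a median of 0.14 over the 69 genes and ran from -0.51 in rpl32 to 0.97 in psbB. Limma called 0 of the 69 and 0.226% of all genes at an adjusted p under 0.05. Of the 69 genes, 20 had an unadjusted p under 0.05, for which no share over all genes is given here.

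The question of the study was which leaf transcripts differ between SA and mock. For the chloroplast genes limma with treatment alone called 0 of 69, with 0 at an unadjusted p under 0.05, against 1.63% of all genes called; the lowest adjusted p was 0.702. Because this fit leaves the replicate 1 difference in the residual, the median residual SD of the 69 genes was 1.05 log2 units, against 0.18 over all genes. With the replicate number as a block it was 0.13, against 0.11 over all genes. Limma with the block also called 0 of the 69, with 1 at an unadjusted p under 0.05, against 9.91% of all genes called and 24.9% at an unadjusted p under 0.05.

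The block narrowed the intervals of the SA change. Its 95% interval lay within a 2-fold change in either direction for all 69 genes with the block, and for 19 of them without it. The median half-width was 0.25 with the block and 1.66 without. These intervals are per gene and are not adjusted for the number of genes. The median size of the change, without sign, was 0.08 for the 69 genes and 0.12 over all genes.

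The rps16 gene stood at the upper end. Its SA minus mock difference was 0.44 ± 0.10 (limma with the block, adjusted p = 0.0650; without the block the standard error was 0.82 and the adjusted p = 0.935), with a 95% interval of 0.17 to 0.70. Within the pairs numbered 1, 2 and 3 SA exceeded mock by 0.47, 0.23 and 0.61, all above 0, and the gene did not pass in either fit. The rpoC2 gene followed with 0.28 ± 0.14 (interval -0.07 to 0.62), then atpF with 0.24 ± 0.15 (interval -0.14 to 0.61), rpl20 with 0.21 ± 0.13 (interval -0.11 to 0.52) and petL with 0.20 ± 0.18 (interval -0.26 to 0.66).

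At the lower end, ndhH had the most negative change, -0.18 ± 0.19 (interval -0.65 to 0.30), close to cemA with -0.18 ± 0.09. The pair differences of ndhH were -0.04, -0.72 and 0.22, so that only the pair numbered 2 was far below 0. The petG and rpl33 genes had -0.12 ± 0.17 and -0.12 ± 0.16, and rps4 and atpH -0.11 ± 0.08 and -0.11 ± 0.09. None of these passed, and every interval contained 0.

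Marker genes of chloroplast function lay close to 0. The change was 0.05 ± 0.11 for psbA (interval -0.23 to 0.33), 0.15 ± 0.13 for rbcL (interval -0.18 to 0.48), -0.09 ± 0.11 for psaA, 0.15 ± 0.13 for psbD, 0.16 ± 0.09 for psbC, -0.09 ± 0.08 for psbK and 0.10 ± 0.10 for psaJ. It was -0.03 ± 0.14 for accD, 0.02 ± 0.10 for clpP, -0.02 ± 0.12 for matK and 0.11 ± 0.15 for ndhE. Among the other polymerase genes it was 0.11 ± 0.13 for rpoA, 0.13 ± 0.11 for rpoB and -0.09 ± 0.15 for rpoC1, and it was 0.13 ± 0.10 for rpl16. All errors in this and the preceding paragraphs are standard errors of the fit with the block.

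**Figure D5:**
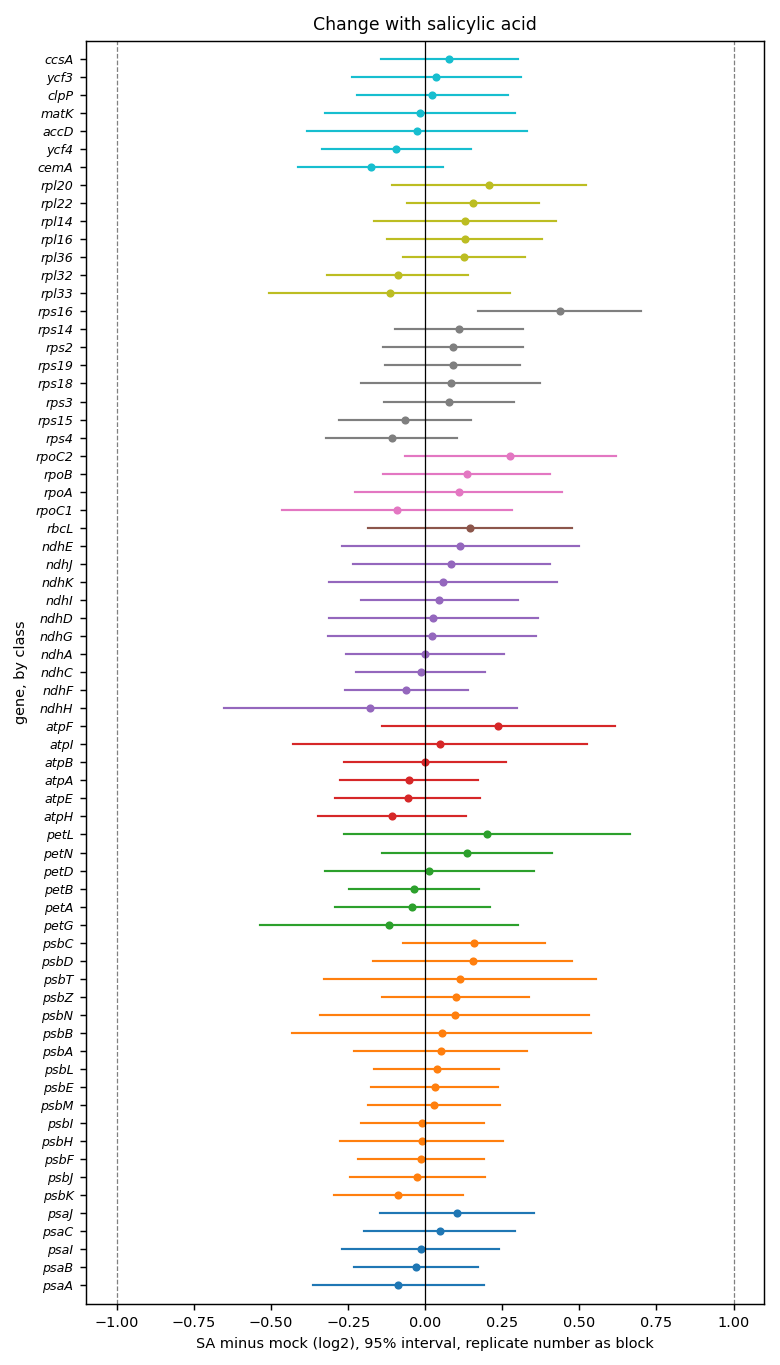
SA minus mock (log2 units, horizontal axis) for the 69 genes by class, as points with 95% intervals from limma with the replicate number as a block; dashed lines mark a 2-fold change. All intervals lie between the dashed lines, and that of rps16 is the one that lies above 0.

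By class, the median SA change was 0.03 over the 43 photosynthesis genes, of which 24 lay above 0, and 0.11 over the 19 genes of the genetic system, of which 14 lay above 0. The class medians were -0.02 for psa, 0.04 for psb, -0.01 for pet, -0.03 for atp, 0.02 for ndh, 0.12 for rpo, 0.09 for rps, 0.13 for rpl and -0.02 for the remaining 7 genes. Photosynthesis minus genetic system came to -0.08 by these medians, and to -0.10, -0.06 and -0.02 in the pairs numbered 1, 2 and 3. Taken from the class medians of each array, it was lower in SA than in mock by -0.14, -0.15 and -0.32 in the 3 pairs. The sign was thus negative in every pair, and the difference is given with no test. With 1 array left out, the value of -0.08 did not keep its sign in every fit, as given in the last section.

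The sign of the small SA differences varied with the pair of arrays. Over the 69 genes the median SA minus mock difference was 0.04, -0.05 and 0.18 in the pairs numbered 1, 2 and 3, and 40, 18 and 50 genes lay above 0. The ndh genes showed this most: 0 of 10 lay above 0 in pair 2 and 9 of 10 in pair 3, with medians of -0.17 and 0.28. A total of 10 of the 69 genes kept 1 sign in all 3 pairs. For 67 of the 69 genes the replicate 1 difference was larger than the SA difference, and its median size was 21.4 times as large. Shares over all genes are not given for these 2 counts. Over all genes the median size was 0.17 for the replicate 1 difference and 0.12 for the SA difference.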

How the data were processed

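The deposited table holds log2 signals of 22810 probe sets on 6 arrays, made by the authors with RMA, per the submitters' processing notes; its version and any filters are not stated in these sources, and scanner files were not used here. RMA includes quantile normalization, which would remove a shift shared by most transcripts. The 64 control probe sets were kept out of the tests. Probe sets with 1 gene were matched by gene identifier to loci of RefSeq TAIR10.1, and the probe set with the highest mean was kept per locus, which gave 13286 genes.

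Differences were fitted over all genes with limma 3.58.1 in R 4.3.3 (lmFit and eBayes), with treatment alone or with the replicate number as a block, at a Benjamini-Hochberg adjusted p under 0.05; all adjusted p-values are from this test. The contrast of replicate 1 with the mean of replicates 2 and 3 comes from the fit with both terms. Deviations from the group means correlated over all probe sets by 0.75, 0.46 and 0.55 between arrays of the same number. These values were all above 0.1, so arrays of 1 number were treated as pairs. Between arrays of different numbers the correlation was at most 0.14. Deviations cancel within a group, which by itself lowers that value, so it is no separate support for the pairs. Over the 69 genes the correlations between arrays of the same number were 0.98, 0.92 and 0.94. The fits of SA against mock, with and without the block, were also run on simulated arrays with planted changes. Their outcome is not given here, and the contrast of replicate 1 was not run on simulated arrays.

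Named genes are rbcL, psbA, the rpo genes, accD, clpP and matK, and in the other classes those with the highest and lowest SA change and the largest replicate 1 difference; others were named after their values were seen. Members, lists and tests were chosen with earlier results of these data known. Nothing says whether replicates came from separate plantings, so p-values measure the spread between these arrays. With the replicate number in the fit, that spread is how far SA minus mock varied among the pairs. For the replicate 1 contrast it leaves out the spread between replicate numbers, and 1 number is set against 2. Alternatives covered the block, low signals, centring, 32 added linear units, probe set choice, all probe sets, an intensity trend, array weights, arrays 2 and 3 alone and each array left out. The number of arrays limits precision: the smallest two-sided p of an exact test of 3 against 3 is 0.1.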

Additional observations from a re-analysis of the deposited data

How the results depend on the processing

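The count of 0 chloroplast genes called between SA and mock held under all alternatives run, with the replicate block and without any 1 array included, and with the block on 2 pairs of arrays, which was added after seeing the data. In fits without 1 array and without the block, the median SA change ran from -0.57 without mock replicate 1 to 0.66 without SA replicate 1, since either leaves an array numbered 1 in a single group. The count of 58 genes lower in replicate 1 was between 54 and 58 under the alternatives that kept all 6 arrays, and between 21 (without mock replicate 1 or SA replicate 1) and 55 when 1 array was left out; each of these genes was among the 58. The filter on a mean of at least 6 left 64 genes. The difference in SA change between photosynthesis and genetic system genes, -0.08, ran from -0.25 to 0.03 when 1 array was left out and from -0.09 to -0.06 otherwise.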
